A study of Mus musculus with 6 samples.

Results

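Genes of fatty acid synthesis and oxidation were examined in whole adrenal glands of mice bred to lose the Hippo pathway kinases MST1 and MST2 in steroid-producing cells. Members were the genes of this array whose symbols belong to the acyl-CoA dehydrogenase, long-chain acyl-CoA synthetase, fatty acid elongase, fatty acid desaturase, carnitine palmitoyltransferase, hydroxyacyl-CoA dehydrogenase, acyl-CoA oxidase and acyl-CoA thioesterase families, together with named enzymes of synthesis and oxidation such as Fasn and Acly. The rule found 58 of the 19505 genes with a symbol, and each of the 58 had 1 probe set among the 22206 compared. Scd2, Acsl1 and Acsl3, which carry symbols of the same families, were not analysed here.

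All 6 animals were females aged 2 months, and each gave RNA of whole glands to 1 Affymetrix whole-transcript array. The 3 control animals were Mst1flox/flox;Mst2flox/flox and had no Cre, so both groups shared the floxed alleles. The 3 mutant animals were Mst1flox/flox;Mst2flox/flox;Nr5a1-cre. The Nr5a1 promoter directs Cre to steroid-producing cells of the adrenal cortex and also to gonadal and some pituitary cells. Vessels, medulla and surrounding fat are not its target, and loss of the kinases in each cell type was not measured here. Values are log2 signals per probe set as deposited, and the numbers of the animals are those of the labels. Median signals of the arrays lay between 6.76 and 6.83, and the 23 background probe sets spanned 2.53 to 7.32. A gene whose group means both lay in that range is called dim below. Of the 58 members, 18 were dim and 40 were above the range in at least 1 group. Stk4, which encodes MST1, measured 8.32, 8.66 and 8.94 in controls 1 to 3 against 8.14, 8.36 and 8.46 in mutants 1 to 3, so the groups overlapped (log2 difference -0.32, SE 0.19, limma adjusted p = 0.623). Whether its probes lie inside the floxed exons is not known here. The gene that encodes MST2 was not analysed here.

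Fatty acids are built in the cytosol from acetyl-CoA that ATP citrate lyase provides, through malonyl-CoA from acetyl-CoA carboxylase, by fatty acid synthase. Elongases and desaturases then make longer and unsaturated chains, and acyl-CoA synthetases activate them. Carnitine palmitoyltransferases carry long chains into mitochondria, where acyl-CoA dehydrogenases begin each cycle of beta-oxidation, and peroxisomes begin theirs with acyl-CoA oxidases. Adrenocortical cells store cholesterol esterified with fatty acids, and arachidonate released from their lipids takes part in the acute steroid response. White and brown fat, which surround the gland, use the same enzymes heavily.

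Of the 58 members, 0 passed the test of mutant against control at an adjusted p of 0.05 (limma, with the Benjamini-Hochberg adjustment taken over 22206 probe sets). Over all probe sets the share that passed was 0.0721%. Below that threshold, 12 members had lower mutant signal at an unadjusted p of 0.05, where the share over all probe sets was 4.96%, and 3 had higher signal, where it was 5.42%. In percent of the members these counts are 20.7% and 5.17%. All 12 lower members were among the 40 above the background range, and among probe sets above the median level the share that was lower at this p was 6.21%. In 15 members, or 25.9%, every mutant lay below every control. That was so for 8.36% of all probe sets and for 11.3% of those above the median level. In 2 members, or 3.45%, every mutant lay above every control, against 8% of all probe sets. The median log2 difference was -0.08 over the 58 members and -0.01 over all probe sets, with 33 members (56.9%) and 52.0% of all probe sets below 0, shares that lie near each other. In whole glands, fewer cells of a type and less RNA per cell cannot be told apart.

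**Figure D1:**
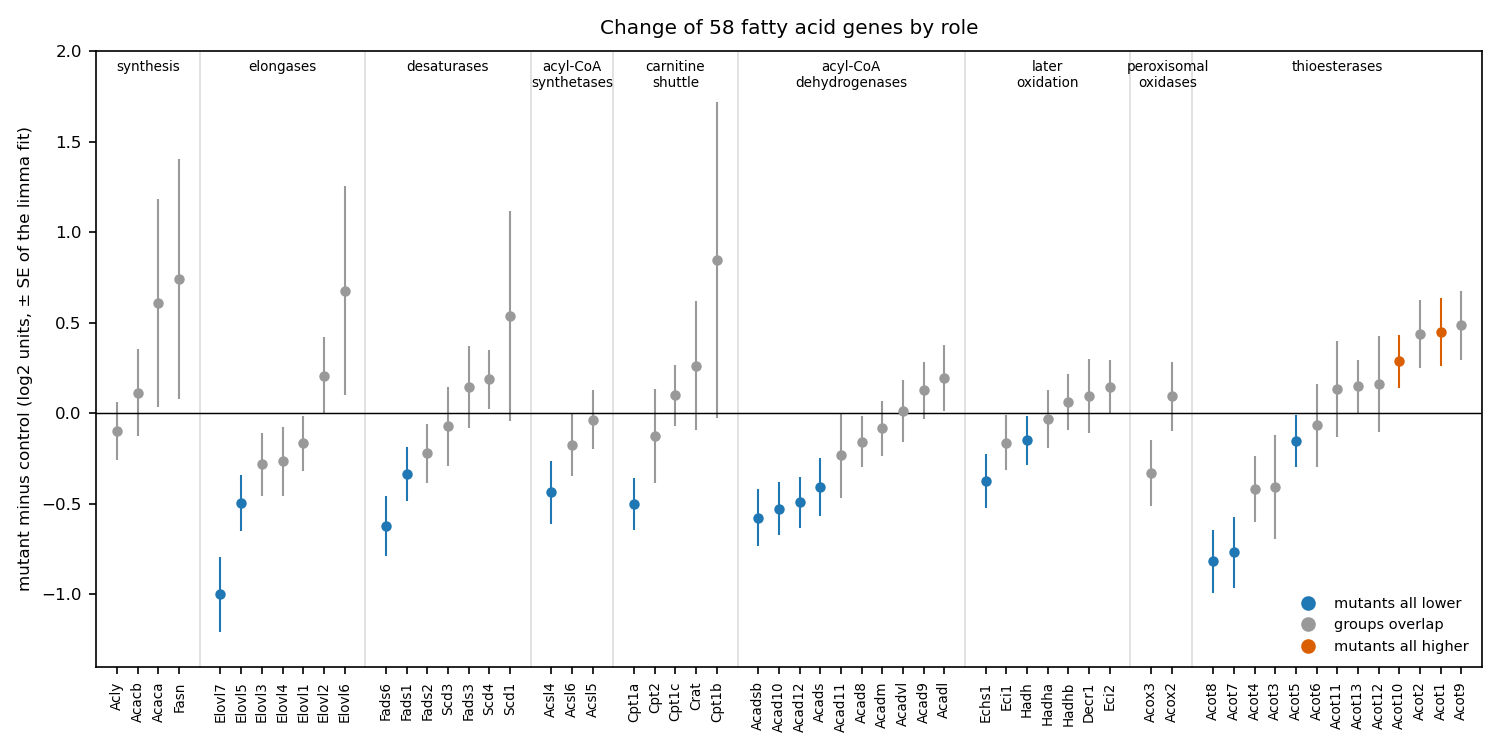
Log2 difference of mutant minus control glands for the 58 members, grouped by role on the horizontal axis. Points are estimates of the limma fit over 3 control and 3 mutant animals, bars are their SE, and blue or orange marks genes whose animals did not overlap; the 15 blue genes lie between -0.15 and -1.0, and the widest bars belong to Cpt1b, Fasn, Scd1, Elovl6 and Acaca.

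In 41 of the 58 members the animals of both groups overlapped. The proximal promoters of 3 genes whose values are given below are shown. Elovl5 and Cpt1a are among the 15 genes lower in all mutants, and Fasn is the member whose slope on fat markers passed. Each is the stretch of 250 bases before the RefSeq transcript start on build GRCm38.p6, on the strand of the gene. Capitals mark the letters CCAAT (the CCAAT box of NF-Y), CACGTG (an E-box) and GGAATG (the TEAD element), searched on both strands. In Fasn, CCAAT on opposite strands overlaps in 1 run of capitals.
Fasn, chr11:120824548-120824797, minus strand: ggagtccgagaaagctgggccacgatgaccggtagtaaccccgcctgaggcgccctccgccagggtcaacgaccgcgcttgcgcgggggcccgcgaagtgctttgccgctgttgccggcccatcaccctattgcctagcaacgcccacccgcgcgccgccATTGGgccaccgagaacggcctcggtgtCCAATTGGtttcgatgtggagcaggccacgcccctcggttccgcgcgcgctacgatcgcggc
Elovl5, chr9:77917115-77917364, plus strand: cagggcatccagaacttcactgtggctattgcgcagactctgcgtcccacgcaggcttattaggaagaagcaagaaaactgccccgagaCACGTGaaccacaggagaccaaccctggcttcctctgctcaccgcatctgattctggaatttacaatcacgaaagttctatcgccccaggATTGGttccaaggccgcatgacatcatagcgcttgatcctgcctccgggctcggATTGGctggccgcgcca
Cpt1a, chr19:3323051-3323300, plus strand: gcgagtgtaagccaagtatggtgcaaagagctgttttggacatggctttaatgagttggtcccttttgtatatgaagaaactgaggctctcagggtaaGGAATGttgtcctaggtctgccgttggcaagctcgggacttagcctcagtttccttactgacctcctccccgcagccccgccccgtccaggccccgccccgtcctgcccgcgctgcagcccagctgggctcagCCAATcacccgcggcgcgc
RefSeq promoters were matched for 49 of the 58 members, in 57 windows. CCAAT occurred in 25 of these 57 windows (43.9%) and in 33.8% of all 32851 windows of the same length. CACGTG occurred in 3 (5.26%, against 6.02%), GGAATG in 4 (7.02%, against 12.6%) and AAGGTCA, the element of NR5A1, in 3 (5.26%, against 4.08%). These matches describe letters only, and say nothing of binding.

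Among the enzymes of cytosolic synthesis, Acly, the ATP citrate lyase, measured 16.95, 16.88 and 16.90 in the controls against 16.99, 16.56 and 16.89 in the mutants. Its groups overlapped and the log2 difference was -0.10 (SE 0.16, 95% interval -0.46 to 0.27). Fasn, the synthase that builds palmitate, measured 13.22, 14.04 and 14.97 in controls against 16.37, 14.26 and 13.83 in mutants. Mutant 1 was the highest and control 1 the lowest of the 6, a span of 3.15 log2 units, and the other animals of both groups were interleaved. The log2 difference of Fasn was 0.74 (SE 0.66, limma adjusted p = 0.762), and it was -0.03 without mutant 1. Acaca, the acetyl-CoA carboxylase of the cytosol, had the same order of extremes, with 10.92, 11.28 and 12.35 in controls against 13.47, 11.61 and 11.30 in mutants (log2 difference 0.61, SE 0.57, and -0.062 without mutant 1). Acacb, the carboxylase at the mitochondrial surface, was dim, at 6.25, 6.23 and 6.87 in controls against 6.97, 6.35 and 6.38 in mutants. Its groups overlapped, with a log2 difference of 0.11 (SE 0.24).

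Elongases included the member with the largest difference. Elovl7, an elongase of long acyl chains, measured 8.01, 7.33 and 7.69 in controls against 6.55, 6.55 and 6.93 in mutants. All mutants lay below all controls by at least 0.41, and the log2 difference was -1.0 (SE 0.21, 95% interval -1.48 to -0.52, limma adjusted p = 0.154), with the mutant mean of 6.68 in the background range. Elovl5, which elongates polyunsaturated chains and whose promoter is shown above, measured 17.71, 17.68 and 17.54 in controls against 17.10, 17.00 and 17.34 in mutants. The groups again did not overlap, and mutant 3 lay nearest to the controls. Its log2 difference was -0.50 (SE 0.15, limma adjusted p = 0.323, and 0.0418 with limma's signal trend and robust prior for the variance). Elovl6, which lengthens palmitate to stearate, measured 12.51, 13.21 and 13.68 in controls against 15.27, 13.13 and 13.03 in mutants. Only mutant 1 stood above the controls, and the log2 difference of 0.68 (SE 0.58, limma adjusted p = 0.749) was -0.05 without that animal. Elovl1, the elongase of very long saturated chains, overlapped between groups (-0.17, SE 0.15). Elovl2, Elovl3 and Elovl4 were dim, with log2 differences of 0.21, -0.28 and -0.27.

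Of 7 desaturases, 5 overlapped between groups and 2 had every mutant below every control, against 8.36% of all probe sets. Fads6, a member of the desaturase family, measured 11.71, 11.77 and 11.57 in controls against 11.28, 10.82 and 11.09 in mutants (log2 difference -0.62, SE 0.17, limma adjusted p = 0.259). Fads1, the delta-5 desaturase that makes arachidonate, measured 15.91, 15.82 and 15.86 in controls against 15.43, 15.44 and 15.73 in mutants (-0.34, SE 0.15, limma adjusted p = 0.491). In both genes every mutant lay below every control, and in Fads1 mutant 3 came within 0.09 of the lowest control. Fads2, the delta-6 desaturase that precedes it, measured 18.20, 18.12 and 18.29 in controls against 17.77, 17.97 and 18.21 in mutants. Mutant 3 of Fads2 lay among the controls, and the log2 difference was -0.22 (SE 0.16, limma adjusted p = 0.709), -0.11 without mutant 1 and -0.33 without mutant 3. Scd1, the stearoyl-CoA desaturase that makes oleate, measured 15.32, 16.57 and 17.32 in controls against 18.07, 16.32 and 16.43 in mutants. Its lowest animal was control 1 and its highest mutant 1, and the log2 difference was 0.54 (SE 0.58, limma adjusted p = 0.806), -0.029 without mutant 1 and -0.0083 without control 1. Signals of Elovl5, Fads2 and Scd1 were among the brightest of the members, and saturation of their probes was not examined. Fads3 had a log2 difference of 0.14 (SE 0.23). Scd3 and Scd4, close copies of Scd1, were dim (-0.07 and 0.19). How far probes of one Scd gene also bind transcripts of another is not known here, so these values are uncertain.

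Acsl4, the acyl-CoA synthetase that prefers arachidonate, measured 15.71, 15.81 and 15.78 in controls against 15.11, 15.23 and 15.64 in mutants. The controls lay close together and all mutants below them, with mutant 3 only 0.06 under the lowest control. The log2 difference of Acsl4 was -0.44 (SE 0.17, 95% interval -0.84 to -0.04, limma adjusted p = 0.445). Acsl5, a synthetase of mitochondria and endoplasmic reticulum, differed by -0.03 (SE 0.16), and the dim Acsl6 by -0.17 (SE 0.17).

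In the carnitine shuttle 1 of 5 genes, Cpt1a, had every mutant below every control, where the share over all probe sets was 8.36%. Cpt1a, the carnitine palmitoyltransferase of liver and most tissues, which commits long chains to oxidation, measured 14.98, 14.90 and 14.79 in controls against 14.33, 14.32 and 14.52 in mutants. Every mutant lay at least 0.27 below every control, and the log2 difference was -0.50 (SE 0.14, 95% interval -0.83 to -0.17, limma adjusted p = 0.297). Cpt1b, the isoform of muscle and brown fat, was dim by its group means and measured 3.85, 5.05 and 7.43 in controls against 7.57, 5.91 and 5.37 in mutants. Its span of 3.72 was the widest of the 58 members. The log2 difference of Cpt1b was 0.84 (SE 0.87, limma adjusted p = 0.795), 0.05 without control 1 and 1.84 without control 3. Cpt2, which reforms acyl-CoA inside mitochondria, measured 10.47, 10.19 and 10.40 in controls against 10.81, 9.74 and 10.13 in mutants (-0.13, SE 0.26). Crat, which exchanges short acyl groups with carnitine, measured 9.79, 10.10 and 10.58 in controls against 11.26, 10.09 and 9.91 in mutants (0.26, SE 0.36, and -0.15 without mutant 1). Both genes overlapped between groups, with mutant 1 the highest animal in each. Cpt1c, an isoform of neurons, was dim and differed by 0.10 (SE 0.17).

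Of the 10 acyl-CoA dehydrogenases, 4 had every mutant below every control. Over all probe sets that share was 8.36%, and 11.3% above the median level. Acadsb, which acts on short branched chains from isoleucine, measured 14.26, 14.24 and 13.99 in controls against 13.54, 13.48 and 13.74 in mutants (log2 difference -0.58, SE 0.16, limma adjusted p = 0.262). Acads, the short-chain enzyme, measured 11.08, 10.87 and 11.01 in controls against 10.43, 10.80 and 10.51 in mutants (-0.41, SE 0.16, limma adjusted p = 0.433). The gap between groups was 0.25 in Acadsb and 0.07 in Acads, where mutant 2 was nearest the controls. Acad10 measured 7.92, 7.97 and 7.87 in controls against 7.23, 7.44 and 7.50 in mutants (-0.53, SE 0.15, limma adjusted p = 0.275). Acad12 measured 9.94, 9.94 and 9.76 in controls against 9.41, 9.32 and 9.45 in mutants (-0.49, SE 0.14, limma adjusted p = 0.297). The controls of Acad10 spanned less than the gap of 0.36 that separated them from the mutants.

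Among dehydrogenases of common straight chains, those for medium, long and very long chains overlapped between groups, unlike the short-chain Acads given above. Acadm, the medium-chain enzyme, measured 12.41, 12.35 and 12.33 in controls against 12.07, 12.45 and 12.31 in mutants (log2 difference -0.08, SE 0.15, 95% interval -0.44 to 0.27). Acadl, the long-chain enzyme, measured 13.31, 13.52 and 13.47 in controls against 13.95, 13.59 and 13.34 in mutants (0.19, SE 0.18, with 0.034 without mutant 1 and 0.34 without mutant 3). Acadvl, the very-long-chain enzyme of the inner membrane, measured 12.50, 12.57 and 12.76 in controls against 12.74, 12.77 and 12.36 in mutants (0.01, SE 0.17, 95% interval -0.38 to 0.40). The 95% interval of Acads, -0.77 to -0.04, overlapped those of Acadm, Acadl (-0.23 to 0.62) and Acadvl. These genes were not tested against each other. Acad8, an enzyme of valine breakdown, differed by -0.16 (SE 0.14), Acad9, which also helps assemble respiratory complex I, by 0.13 (SE 0.16) and Acad11 by -0.23 (SE 0.23).

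In the later steps of the mitochondrial cycle, Echs1, the short-chain enoyl-CoA hydratase, measured 14.95, 15.08 and 14.84 in controls against 14.48, 14.56 and 14.71 in mutants. The groups did not overlap, and the log2 difference was -0.37 (SE 0.15, limma adjusted p = 0.439). Hadh, the short-chain hydroxyacyl-CoA dehydrogenase, also had every mutant below every control, by 0.04, with a log2 difference of -0.15 (SE 0.13). Hadha and Hadhb encode the subunits of the trifunctional protein, which completes the cycle for long chains. Hadha measured 15.06, 15.03 and 15.11 in controls against 15.28, 14.84 and 14.98 in mutants (-0.03, SE 0.16), and mutant animals lay on both sides of the controls. Hadhb measured 14.61, 14.69 and 14.76 in controls against 14.96, 14.71 and 14.58 in mutants (0.06, SE 0.16). Eci1 and Eci2, isomerases for unsaturated chains, differed by -0.16 and 0.15 (SE 0.15 each), and Decr1, the dienoyl-CoA reductase, by 0.10 (SE 0.20). Of the peroxisomal oxidases measured, Acox3, an oxidase of branched chains, differed by -0.33 (SE 0.18) and the dim Acox2 by 0.09 (SE 0.19), and the animals of both overlapped.

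Of 13 thioesterases, which split acyl-CoA into free fatty acid and CoA, 8 overlapped between groups. Every mutant lay below every control in 3 of them (23.1%) and above in 2 (15.4%), against 8.36% and 8% of all probe sets. Acot8, the broad thioesterase of peroxisomes, measured 7.96, 7.90 and 7.97 in controls against 6.81, 7.33 and 7.24 in mutants (log2 difference -0.82, SE 0.17, 95% interval -1.22 to -0.42, limma adjusted p = 0.162). Its controls lay close together and the nearest mutant was 0.57 below them, with the mutant mean in the background range. Acot7, a cytosolic thioesterase abundant in neurons, measured 9.18, 9.70 and 9.81 in controls against 8.73, 8.71 and 8.94 in mutants (-0.77, SE 0.20, limma adjusted p = 0.238). Again no animals overlapped, and the controls were the more variable group. Acot9, a mitochondrial thioesterase, measured 9.59, 9.46 and 9.74 in controls against 9.74, 10.17 and 10.35 in mutants (0.49, SE 0.19, limma adjusted p = 0.437). Mutant 1 of Acot9 lay just below the highest control.

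Acot2, a mitochondrial thioesterase, measured 12.17, 12.20 and 12.54 in controls against 13.03, 12.68 and 12.52 in mutants (log2 difference 0.44, SE 0.19, limma adjusted p = 0.472). Acot1, its cytosolic neighbour, was dim at 4.82, 5.15 and 5.16 in controls against 5.77, 5.49 and 5.22 in mutants (0.45, SE 0.19, limma adjusted p = 0.466). In Acot1 all mutants lay above all controls, and in Acot2 mutant 3 lay below control 3. Acot11, a thioesterase of brown fat, was dim at 5.91, 6.04 and 6.60 in controls against 6.73, 6.38 and 5.85 in mutants (0.13, SE 0.27). Acot10, also dim, was the other member with every mutant above every control (0.29, SE 0.14). Acot3, Acot4, Acot5, Acot6 and Acot12 were dim too, with log2 differences from -0.42 in Acot4 to 0.16 in Acot12, and Acot13, a mitochondrial thioesterase, differed by 0.15 (SE 0.15). The mouse genes Acot1 to Acot6 are close copies of one another, and how their probes share transcripts is not given here, so their values are uncertain. The 3 members higher at an unadjusted p of 0.05 were Acot9, Acot1 and Acot2, and this count was 0 without control 1, without control 2 and without mutant 2, 1 without mutant 1, 2 without mutant 3 and 4 without control 3.

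**Figure D2:**
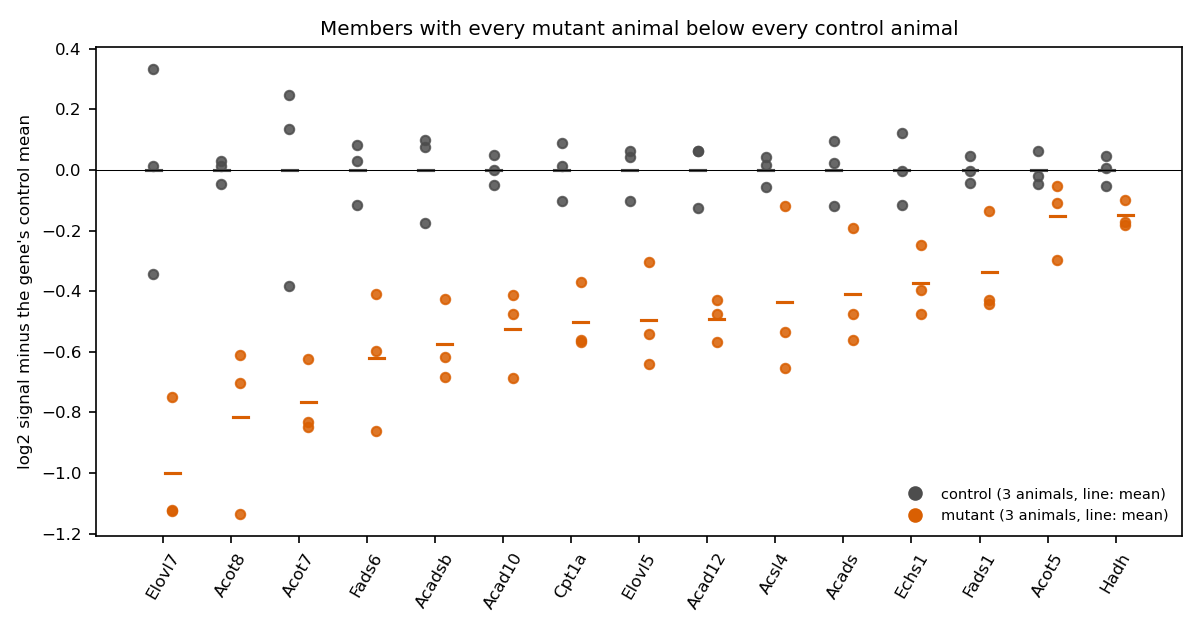
Log2 signal of each animal minus the control mean of the gene, for the 15 members with every mutant below every control. Grey points are the 3 control animals, orange points the 3 mutants, and short lines are group means; the gap between groups is widest in Acot8 (0.57) and narrowest in Acot5 (0.01), a dim gene.

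Markers of other cells were read beside these differences. The mean log2 signal of 13 cortex markers was 17.67, 17.66 and 17.72 in controls against 17.48, 17.61 and 17.65 in mutants. Of these, 11 of 13 were lower in mutants, and the median difference over all 13 was -0.11. Defining cortex genes were bright in all animals, which is the tissue the labels name. Means of 9 endothelial markers were 11.84, 11.60 and 11.78 in controls against 12.03, 12.14 and 12.04 in mutants, with 7 of 9 higher, and those of 9 fibroblast markers were 10.05, 9.75 and 10.33 against 11.16, 10.69 and 10.18, with 8 of 9 higher. Means of 9 macrophage markers were 9.72, 9.66 and 9.65 in controls against 9.93, 10.21 and 9.68 in mutants, with 8 of 9 higher. Means of 9 chromaffin markers were 12.96, 13.77 and 12.66 in controls against 12.74, 12.70 and 12.73 in mutants, with 9 of 9 lower. Among these markers 0 passed the test over all probe sets. All 9 kidney tubule and all 9 skeletal muscle markers were dim in both groups. So endothelial means were higher in every mutant, and cortex means lower, the latter by little: 17.66 in control 2 against 17.65 in mutant 3. Of 13 cortex markers, 2 (15.4%) had every mutant below every control, against 8.36% of all probe sets. Of 9 endothelial markers, 4 (44.4%) had every mutant above every control, against 8%. The part of cell composition in the differences of the 15 lower members was not tested.

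Fat differed far more between animals than any of these. The mean of 14 adipocyte markers was 7.87, 9.30 and 10.25 in controls against 11.67, 9.41 and 8.68 in mutants. Of these, 12 of 14 were higher in mutants, the median difference over all 14 was 0.87, and 0 passed. Ucp1, the uncoupler of brown fat, measured 3.21 in control 1, the lowest animal, and 11.42 in control 3. Adipoq, the adiponectin gene of fat cells, measured 7.24 in control 1 and 14.09 in mutant 1. Plin1 and Nnat of this list did not follow the others, and Plin1 measured between 11.96 and 12.43 in all 6 animals.

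Fasn followed the adipocyte mean through both genotypes. In a limma fit that held genotype and the adipocyte mean of each array together, the log2 signal of Fasn rose by 0.82 per log2 unit of that mean (SE 0.07, limma adjusted p = 0.0155 over all probe sets). Fasn was the only member of the 58 whose slope passed, against 0.14% of all probe sets. Slopes of Scd1 (0.69, SE 0.09), Acaca (0.68, SE 0.09) and Elovl6 (0.68, SE 0.09) had limma adjusted p of 0.0689, 0.0689 and 0.0841. Cpt1b had a slope of 1.0 (SE 0.18) and Crat one of 0.41 (SE 0.07), with limma adjusted p of 0.238 and 0.212. At an unadjusted p of 0.05, 13 members had upward slopes, where the share over all probe sets was 3.45%, and 1 (Acot12) had a downward slope, where it was 2.64%. The other upward slopes belonged to Acacb, Decr1, Acad11, Acot1, Acot2, Acot4 and Acot11.

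Without single animals the slope of Fasn lay between 0.71 without mutant 1 and 0.88 without control 1. Its adjusted p was 0.665 without mutant 1, 0.0829 without control 1, 0.0893 without control 3, 0.0739 without mutant 2 and 0.152 without mutant 3, and 0.0228 without control 2, where Acaca passed as well (0.0465). The adipocyte slopes of Cpt1a (-0.06, SE 0.06) and Elovl5 (-0.06, SE 0.07) were close to 0.

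**Figure D3:**
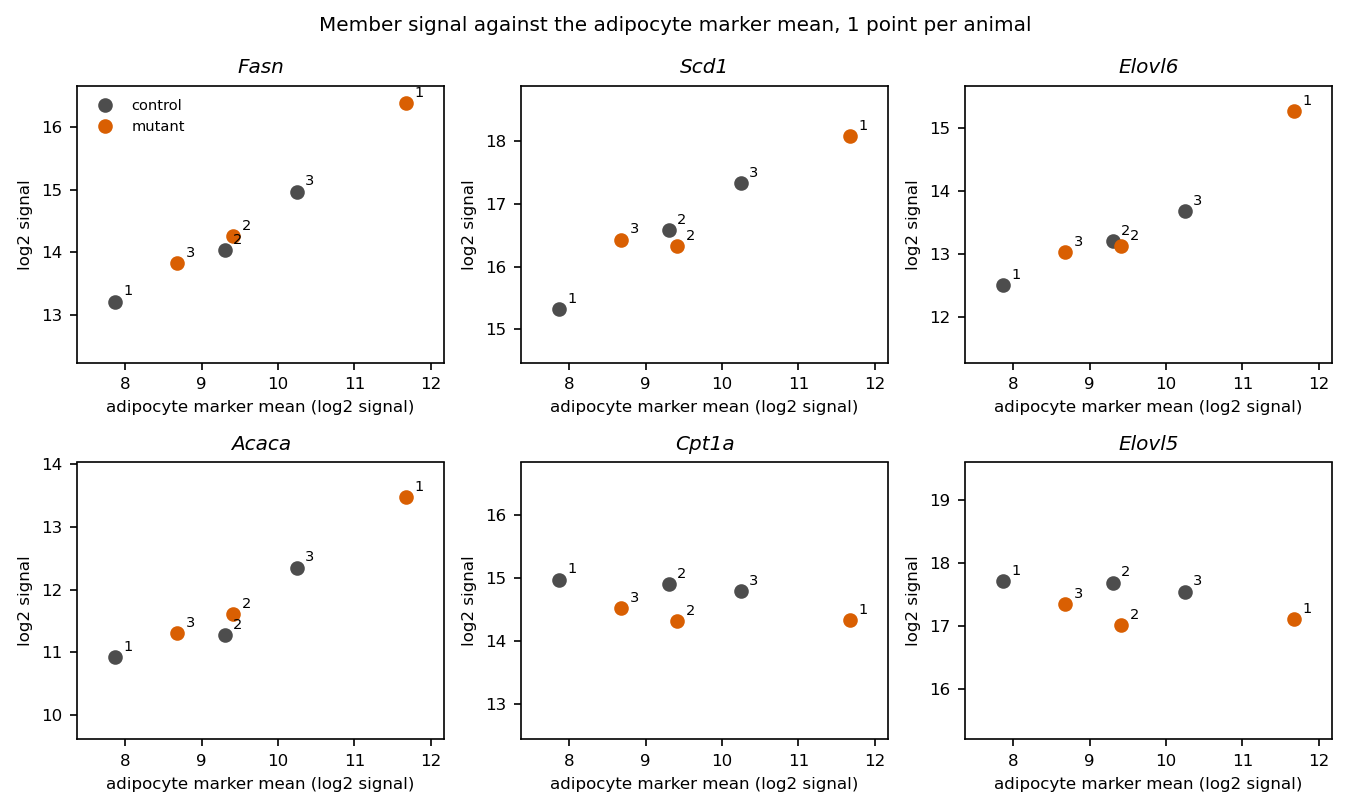
Log2 signal of 6 members (vertical axes, equal spans) against the mean log2 signal of 14 adipocyte markers in the same animal (horizontal axes). Each point is 1 animal with its number, grey for control and orange for mutant; Fasn, Scd1, Elovl6 and Acaca climb with the adipocyte mean in both groups, except that mutants 2 and 3 of Scd1 stand in the opposite order, whereas Cpt1a and Elovl5 lie lower in mutants with slopes near 0.

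With the adipocyte mean in the fit, the estimated differences of the wide-ranging genes shrank and those of the lower genes changed little. The genotype difference of Fasn was 0.11 (SE 0.18) in that fit in place of 0.74, and that of Acaca 0.08 (SE 0.22) in place of 0.61. That of Elovl6 was 0.14 (SE 0.23) in place of 0.68, and that of Scd1 -0.01 (SE 0.22) in place of 0.54. Cpt1b was at 0.06 in place of 0.84, with an SE of 0.42 that leaves its difference poorly determined. Elovl7 was at -0.91 in place of -1.0, Acot8 at -0.74 in place of -0.82, Cpt1a at -0.45 in place of -0.50 and Elovl5 at -0.45 in place of -0.50. In the fit with the covariate, 4.05% of all probe sets had lower mutant signal at an unadjusted p of 0.05. Lower signal at that p was found for 11 of the 58 members, 9 of them among the 12 without the covariate. Acads, Echs1 and Acsl4 were the 3 that no longer reached it, and Acad11 and Acot4 the pair added. In this fit 0 members passed at an adjusted p of 0.05, and 1 was higher at the unadjusted p (Acot9, 0.57), against 4.78% of all probe sets.

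**Figure D4:**
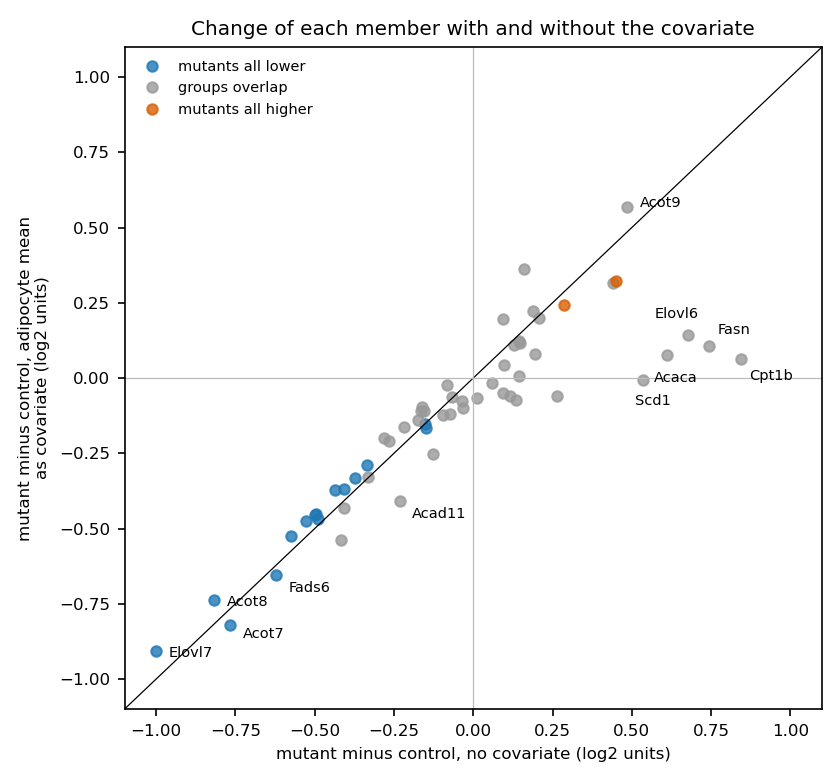
Genotype difference in log2 units of each of the 58 members without (horizontal) and with (vertical) the adipocyte marker mean as a covariate, with the line of equal values. The 15 blue members, with all mutants below all controls, lie along the line, whereas Fasn, Elovl6, Acaca, Scd1 and Cpt1b lie near 0 on the vertical axis only.

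Partners of these enzymes were read from lists of uptake, elongation, oxidation, storage and regulation, and 0 of their measured genes passed over all probe sets. Hacd4, a dehydratase of the elongation cycle, had the smallest p among them and measured 9.08, 8.78 and 9.41 in controls against 10.17, 10.31 and 10.22 in mutants (log2 difference 1.14, SE 0.18, limma adjusted p = 0.0736). Its relatives Hacd2 (-0.29, SE 0.14) and Hacd3 (-0.27, SE 0.13) had every mutant below every control, with limma adjusted p of 0.533 and 0.539. Hacd1, named after its values were seen, overlapped between groups (-0.01, SE 0.18), and the relatives were not tested against each other. Of 15 storage and lipolysis genes, 4 (26.7%) were lower and 0 higher at an unadjusted p of 0.05, against 4.96% and 5.42% of all probe sets. Dgat1, which makes triglyceride, measured 8.48, 8.53 and 8.43 in controls against 7.33, 7.80 and 7.70 in mutants (-0.87, SE 0.17, limma adjusted p = 0.119). Mgll, the monoglyceride lipase, differed by -0.72 (SE 0.16) and Lipa, the acid lipase of lysosomes that frees stored cholesterol, by -0.66 (SE 0.15), with limma adjusted p of 0.183 and 0.191 and no overlap of animals in either.

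Of 24 oxidation partners, 2 (8.33%) were lower and 0 higher at that p, near the 4.96% of all probe sets (6.21% above the median level). These were Pccb, a subunit of propionyl-CoA carboxylase (-0.50, SE 0.15), and Phyh, the peroxisomal hydroxylase of phytanate (-0.54, SE 0.17). Acsf2, an acyl-CoA synthetase, differed by 0.32 (SE 0.15). Of 16 uptake genes, Gpihbp1, which anchors lipoprotein lipase on capillary endothelium, was higher (0.44, SE 0.15) and Acbd5 and Slc27a6 were lower (-0.38, SE 0.15, and -0.54, SE 0.22) at the unadjusted p, Slc27a6 being dim. In percent of the uptake list these are 6.25% higher and 12.5% lower, so 1 and 2 genes. Of 15 regulators, 0 reached that p, and the 3 of smallest p were Insig1 (-0.40, SE 0.23), Insig2 (-0.29, SE 0.19) and Thrsp (0.83, SE 0.70). Slopes on the adipocyte mean passed for Thrsp, a lipogenic factor of fat and liver (0.87, limma adjusted p = 0.00756), Lpl (0.82, limma adjusted p = 0.0246), Dgat2 (0.64, limma adjusted p = 0.0304) and Abcd2 (0.67, limma adjusted p = 0.0308).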

How the data were processed

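RNA of whole adrenal glands from 6 mice was measured on 1 array each. The authors deposited 1 log2 signal for each probe set (the scale was read from its range), and their processing notes name Transcriptome Analysis Console 4.0. How background, summarisation and normalization were handled is not given here, so a change common to nearly all genes may be missing from these values. Control probe sets (6640) were left out, which left 22206. The platform table gave 1 symbol to 19572 of these and none to 2634.

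The difference of mutants from controls came from a limma fit (3.58.1, R 4.3.3, moderated by eBayes) to the 6 arrays, with no covariate and no filter, tested first on simulated data. P-values were two-sided, with Benjamini-Hochberg adjustment, and SEs and 95% intervals are those of the moderated fit. The protocols name 3 mice per group, so the spread is between animals, and their number limits precision. The members, gene lists and tests were chosen with earlier results of these data known. Values per animal were given for the 15 members of smallest p and for set key enzymes, 32 in all, and for pathway lists the 3 genes of smallest p were named. Genes with passing adipocyte slopes were named after their values were seen. Alternatives were another normalization, scaling, filters, variance model, weights per array, a block on replicate number, covariates and each animal left out. Counts at an unadjusted p, counts without overlap and adipocyte slopes were added after seeing the data. Promoter sequences and their coordinates are from RefSeq on GRCm38.p6. No genome build of the array is named, so probe positions are not given.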

Additional observations from a re-analysis of the deposited data

How the results depend on the processing

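The count of members past the adjusted p of 0.05 was 0 under every alternative but 1: with a trend on signal and a robust prior it was 1 (Elovl5, -0.50, adjusted p = 0.0418), where 175 of all probe sets passed against 16 in the fit as reported. Over all probe sets this count ranged from 1 (without control 1, 2 or 3, and with the replicate block) to 175. The median difference over members kept its sign, between -0.11 and -0.05 without single animals, and the member count without animals stayed at 0. Members lower at the unadjusted p numbered from 9 (without control 1) to 13 (without mutant 3), and those higher from 0 to 4. Over all probe sets the share lower ranged from 3.41% (without control 1) to 7.66% (only probe sets above the median level). The share higher ranged from 4.22% to 7.82% in the same settings. Members higher were 1 with the replicate block, 1 with the adipocyte covariate and 0 with the intron control signal as a covariate. The shares of all probe sets higher in these fits were 5%, 4.78% and 5.6%. Members lower without overlap numbered 15 to 20 without single animals, where fewer animals make separation easier. The share of all probe sets lower without overlap was then 11.9% (without control 1) to 16.4% (without control 3), against 8.36% with all animals. Members with a passing adipocyte slope numbered 0 to 2 without single animals, 4 among probe sets above the median level and 5 with the trend and robust prior. The share of all probe sets with a passing slope was 0.14% in the fit as reported and is not given here for these settings. The cause of the shifts in these counts was not tested.

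Of 508 recomputed differences of single members, 482 kept their direction and side of the threshold, and Elovl5 crossed it. In 25 the sign turned, all in genes that had not passed. Acadvl was at -0.016 with arrays shifted to a common median. With the adipocyte covariate Acacb was at -0.061, Acadvl at -0.065, Acot11 at -0.073, Crat at -0.058, Hadhb at -0.018 and Scd1 at -0.0058. Without single animals the ranges were -0.062 to 1.03 for Acaca, -0.087 to 0.33 for Acacb, -0.17 to 0.020 for Acadm, -0.061 to 0.15 for Acadvl, -0.18 to 0.030 for Acly, -0.071 to 0.37 for Acot11, -0.42 to 0.12 for Cpt2, -0.15 to 0.52 for Crat, -0.054 to 1.07 for Elovl6, -0.033 to 1.24 for Fasn, -0.16 to 0.066 for Hadha, -0.044 to 0.14 for Hadhb and -0.029 to 0.99 for Scd1.

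Deviations of same-numbered animals from their group means correlated at -0.09, 0.08 and -0.07 over all probe sets. Such values show no strong shared deviation across the array, but cannot show whether the numbers pair the animals. With the replicate block 0 members passed and 10 of 58 were lower at the unadjusted p, where the share over all probe sets was 4.26%. Dim members limit what a difference can show, because their signal is not told apart from background.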
